A study of Danio rerio with 12 samples.

Results

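The hatching gland genes are a small set of transcripts that mark the cells which free the zebrafish embryo from its egg envelope. The set was fixed by gene name: the hatching enzymes he1a, he1b, he1.1 and he1.2, the protease ctslb, the tetraspanin cd63, the secretory protein agr2 and the transcription factor klf17. Of these 8 names, 6 occur in a deposited table of 13680 genes, on 8 rows, because the name ctslb stands on 3 of them. RefSeq lists he1a and he1b as synonyms of he1.1 and he1.2, so both enzymes are covered by the rows found. All 8 rows are described here.

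Embryos were made in vitro with sperm of starved or of fed males and eggs of wild-type females that had been fed, to learn whether a father's food supply leaves a trace in his offspring. There were 6 libraries of offspring of starved fathers and 6 of offspring of fed fathers, all of the AB genotype and all taken out of the chorion by hand and frozen at 24 hours after fertilisation. Each library holds 1 to 3 whole embryos of a clutch, so a gland transcript is diluted by every other tissue, and fewer gland cells cannot be told apart from less RNA per gland cell. Several fathers were used per group; the sources used here do not tie libraries to fathers, so a p-value measures the spread among libraries, part of which may be technical. Each library has a description code: starved and fed replicates 1 to 4 share the codes 1118, 1203, 1210 and 1219 in that order, and replicates 5 and 6 of both groups share the code 1242.

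As background, the hatching gland arises from the prechordal plate, the first mesendoderm to move to the front of the gastrula, and its cells come to lie over the yolk and pericardium by the end of the first day. The cells fill with granules of proteases of the astacin family, zinc enzymes that soften and dissolve the chorion when they are released at hatching. Klf17 is needed for the gland to form, and Xbp1 and Prdm1a act in its differentiation, which builds a large endoplasmic reticulum. At 24 hours the gland is loaded but has not yet discharged.

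The whole reads behind the table came to between 2950739 and 3934765 per library. Values are given as normalised read counts, the unit of the table, in which the reads of each library are divided by its own size factor. In 3' tag sequencing a transcript gives a read irrespective of its length, so levels of different genes can be set side by side, apart from reads shared by similar copies. The mitochondrial chromosome took between 29.4% and 48.4% of the reads in libraries of starved fathers and between 36.9% and 50.5% in libraries of fed fathers, with the highest share in fed replicate 5. Between groups, 0 of 13680 genes (0%) passed limma's test on log2(value + 1) at an adjusted p below 0.05, and 758 (5.54%) had an unadjusted p below 0.05. In the same comparison no gene was called by edgeR's quasi-likelihood test (649 unadjusted) or DESeq2 (754 unadjusted) on whole reads. The authors' deposited table, for which the submitters name edgeR, lists 105 genes at an FDR below 0.05. Of these, 20 have a positive log2 fold change and 85 a negative one. The limma, edgeR and DESeq2 tests above, all without a block, thus did not reproduce these calls. The settings of the authors' fit are not given, and the reason for the gap was not tested. A limma fit that kept the replicate number as a block called 39 genes (0.285%), none of them a hatching gland gene.

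The hatching enzyme genes were the most abundant of the set and differed more between libraries of one group than between the groups. The gene he1.1 (ENSDARG00000023656, chromosome 22, bases 14093306 to 14094746, GRCz11) encodes an astacin protease of the gland granules. Its normalised read count was 215 at the lowest, 315 at the median and 478 at the highest in libraries of starved fathers, against 193, 261 and 1283 in libraries of fed fathers. The highest value was in fed replicate 5 and the second, 787, in fed replicate 4, and the groups overlapped. The mean was 336 ± 99.6 in offspring of starved fathers and 498 ± 445 in offspring of fed fathers (SD, n = 6 each), with a log2 difference of -0.20 ± 0.35 (SE; limma, adjusted p = 0.965). On whole reads edgeR gave a log2 fold change of -0.58 for he1.1 and DESeq2 one of -0.57, with no call.

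The second hatching enzyme gene, he1.2 (ENSDARG00000019122, bases 14098028 to 14099399 of the same chromosome), is the tandem neighbour of he1.1. Its normalised read count was 375, 573 and 861 at the lowest, median and highest in libraries of starved fathers, against 277, 499.6 and 1506 in libraries of fed fathers. Fed replicates 5 and 4 were again the highest pair, and the groups overlapped. The mean was 599 ± 209.8 in offspring of starved fathers and 706 ± 489 in offspring of fed fathers (SD, n = 6 each; log2 difference -0.04 ± 0.32, SE; limma, adjusted p = 0.998). By mean level he1.2 stood 150th and he1.1 223rd among the 13680 genes, and he1.2 was above he1.1 in 12 of 12 libraries. Reads may be split unreliably between 2 such similar genes; summed, they averaged 935 ± 293 in offspring of starved fathers and 1204 ± 929 in offspring of fed fathers (SD, n = 6 each).

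The ctslb row with the most reads carried the largest difference of the set, but was not called by limma. Cathepsin Lb is a cysteine protease, and RefSeq lists the older name hgg1 for its gene. Of the rows that the deposited table names ctslb, the reference list of gene names gives this name to ENSDARG00000074306 only. It has no name for ENSDARG00000039173, so which row is hgg1 is not settled here. The row ENSDARG00000039173 (chromosome 12, bases 16617138 to 16619757) had a normalised read count of 61.95 at the lowest, 158 at the median and 317 at the highest in libraries of starved fathers, against 109, 172 and 818 in libraries of fed fathers. The lowest value was in starved replicate 3, the highest in fed replicate 5 and the next, 443, in fed replicate 4, and the groups overlapped. The mean was 167 ± 87.2 in offspring of starved fathers and 310 ± 277 in offspring of fed fathers (SD, n = 6 each), with a log2 difference of -0.65 ± 0.39 (SE; limma, adjusted p = 0.896). On whole reads edgeR gave a log2 fold change of -0.90, with an unadjusted p of 0.0424 and no call after adjustment. When the replicate number was a block, the unadjusted p was 0.00177 and the adjusted p 0.160 (limma). In the authors' deposited table this row has a log2 fold change of -0.76 and an FDR of 0.00366, and is the only row of the set that the table calls at an FDR below 0.05, where it lists 85 lower genes (0.621%).

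The other two rows named ctslb had far fewer reads. ENSDARG00000074306 (bases 16691584 to 16694092) and ENSDARG00000087651 (bases 16691586 to 16720434) overlap on chromosome 12, and reads from the stretch they share cannot be told apart here. ENSDARG00000074306 had a normalised read count of 3.69, 13.7 and 26.7 at the lowest, median and highest in libraries of starved fathers, against 10.04, 10.4 and 36.7 in libraries of fed fathers (limma log2 difference -0.25 ± 0.39, SE, adjusted p = 0.961). The second highest value was in starved replicate 2, after fed replicate 5, and the groups overlapped. ENSDARG00000087651 lay between 0 and 6.31 in libraries of starved fathers and between 0.89 and 5.58 in libraries of fed fathers, which rests on 0 to 27 reads per library (limma log2 difference -0.35 ± 0.47, SE, adjusted p = 0.954). Summed over the 3 rows, ctslb averaged 185 ± 90.2 in offspring of starved fathers and 329 ± 288 in offspring of fed fathers (SD, n = 6 each; limma log2 difference -0.60 ± 0.38, SE, adjusted p = 0.898).

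**Figure D1:**
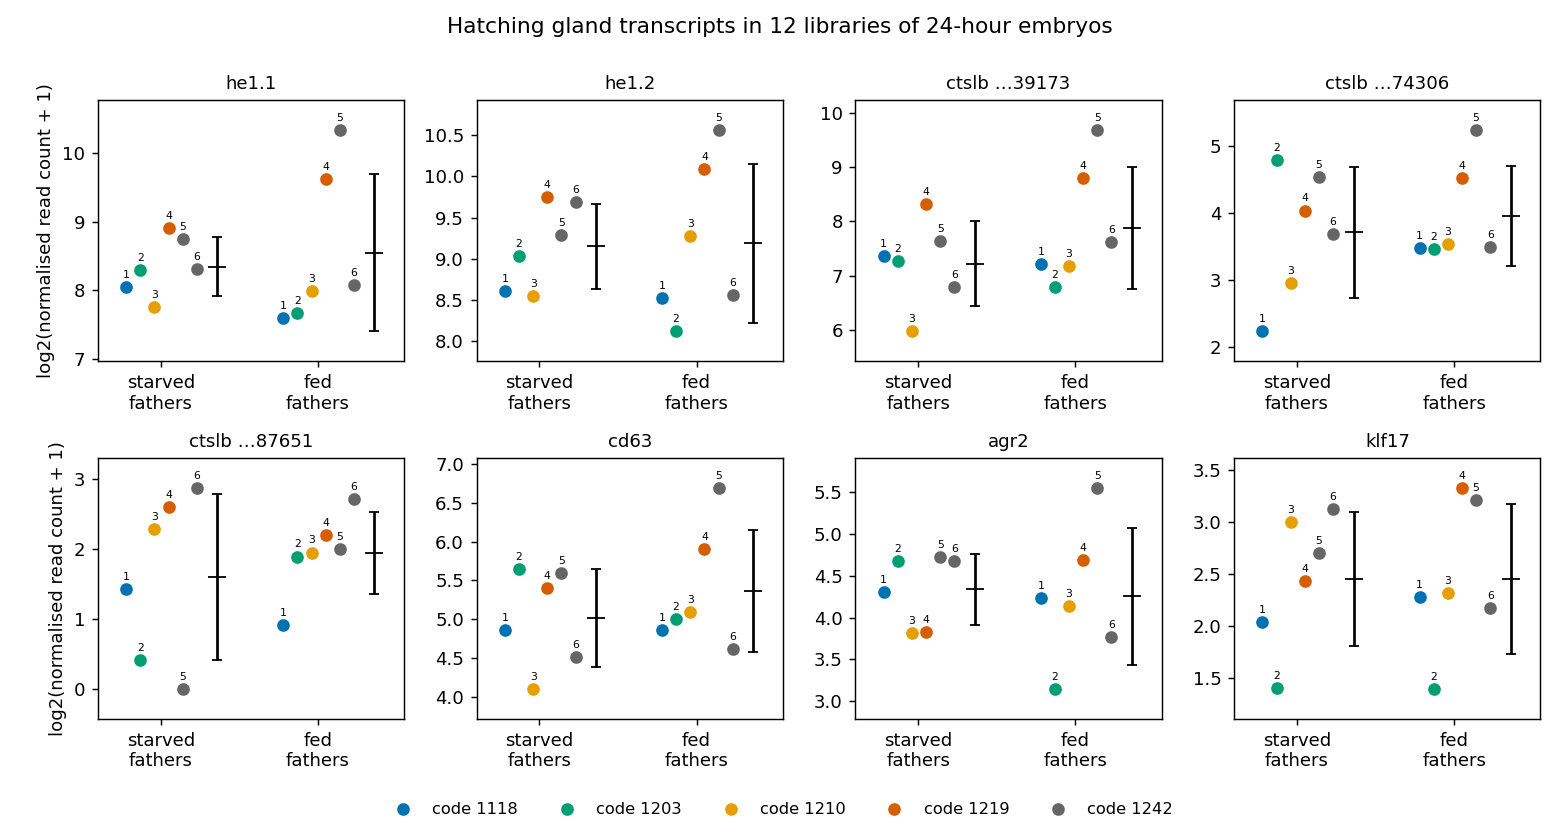
Level of the 8 hatching gland rows in each library, as log2(normalised read count + 1), in offspring of starved fathers (left in each panel) and of fed fathers (right). Points are libraries with their replicate number, coloured by description code, and the bars give mean ± SD of 6 libraries. Fed replicate 5 is the highest library for 6 of the 8 rows, and the share of all genes highest in it was not counted.

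The secretory genes cd63 and agr2 showed the same high library. The tetraspanin gene cd63 (ENSDARG00000025147, chromosome 23, bases 32066168 to 32085939) encodes a membrane protein of late endosomes and secretory granules that is made in many tissues besides the gland. Its normalised read count was 16.15, 34.7 and 49.2 at the lowest, median and highest in libraries of starved fathers, against 23.5, 32.0 and 103 in libraries of fed fathers. Only fed replicates 4 (59.0) and 5 lay above the range of the libraries of starved fathers. The log2 difference was -0.34 ± 0.31 (SE; limma, adjusted p = 0.943).

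The gene agr2 (ENSDARG00000070480, chromosome 19, bases 30400372 to 30404096) encodes a disulfide isomerase of the endoplasmic reticulum that also marks mucus-secreting cells. It had a normalised read count of 13.02, 21.6 and 25.4 at the lowest, median and highest in libraries of starved fathers, against 7.87, 17.2 and 45.7 in libraries of fed fathers. The libraries of starved fathers all lay within the range of the others, which fed replicate 2 opened at the low end and fed replicate 5 at the high end. The log2 difference was 0.08 ± 0.31 (SE; limma, adjusted p = 0.991), and agr2 was the only row of the set whose mean log2 value was higher in the starved group, a direction that turned with edgeR (-0.07) and DESeq2 (-0.06).

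The transcription factor gene klf17 (ENSDARG00000038792, chromosome 2, bases 33326522 to 33328688) was close to the floor. Its normalised read count was 1.65, 4.945 and 7.71 at the lowest, median and highest in libraries of starved fathers, against 1.63, 3.925 and 9.04 in libraries of fed fathers, which rests on 5 to 33 reads per library. Its 2 lowest libraries were starved and fed replicate 2, and the groups overlapped. The log2 difference was -0.0010 ± 0.38 (SE; limma, adjusted p = 0.9995).

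By mean level over the 12 libraries the order was he1.2, he1.1, ctslb (ENSDARG00000039173), cd63, agr2, ctslb (ENSDARG00000074306), klf17 and ctslb (ENSDARG00000087651). The first 4 kept this order in 12 of 12 libraries. Neighbours further down did not: cd63 was above agr2 in 11 libraries, agr2 above ctslb ENSDARG00000074306 in 9, that row above klf17 in 11 and klf17 above ctslb ENSDARG00000087651 in 9. The 8 rows together took between 0.0894% and 0.172% of the reads in libraries of starved fathers and between 0.0716% and 0.309% in libraries of fed fathers.

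As a set the 8 rows did not separate the groups. The mean log2 value was lower in the starved group for 7 of 8 rows, as it was for 52% of all genes. The median log2 difference was -0.22, against -0.01 over all 13680 genes, and limma gave no row an adjusted or an unadjusted p below 0.05. For 0 of 8 rows did the groups not overlap, which was the case for 0.234% of all genes.

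These directions rested on a pair of libraries of fed fathers. Without fed replicates 4 and 5 the median turned to 0.31, against -0.02 over all genes, and the mean log2 value was higher in the starved group for 7 of 8 rows, as it was for 46.8% of all genes. Without these 2 libraries the means of he1.1 were 336 ± 99.6 in offspring of starved fathers (SD, n = 6) and 229 ± 37.3 in offspring of fed fathers (SD, n = 4). The log2 difference was then 0.51 for he1.1, 0.53 for he1.2 and 0.02 for ctslb ENSDARG00000039173, and none was called. These libraries were left out because they stood apart, and they were the highest pair for these rows, while starved replicate 4, the third highest, was kept. A shift towards higher values in the starved group is thus set by the choice, and no p-value is given for it. For ctslb ENSDARG00000039173, the authors' deposited table gives only the comparison of all 12 libraries, and the settings of its fit are not given. A count test without fed replicates 4 and 5 was not run.

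**Figure D2:**
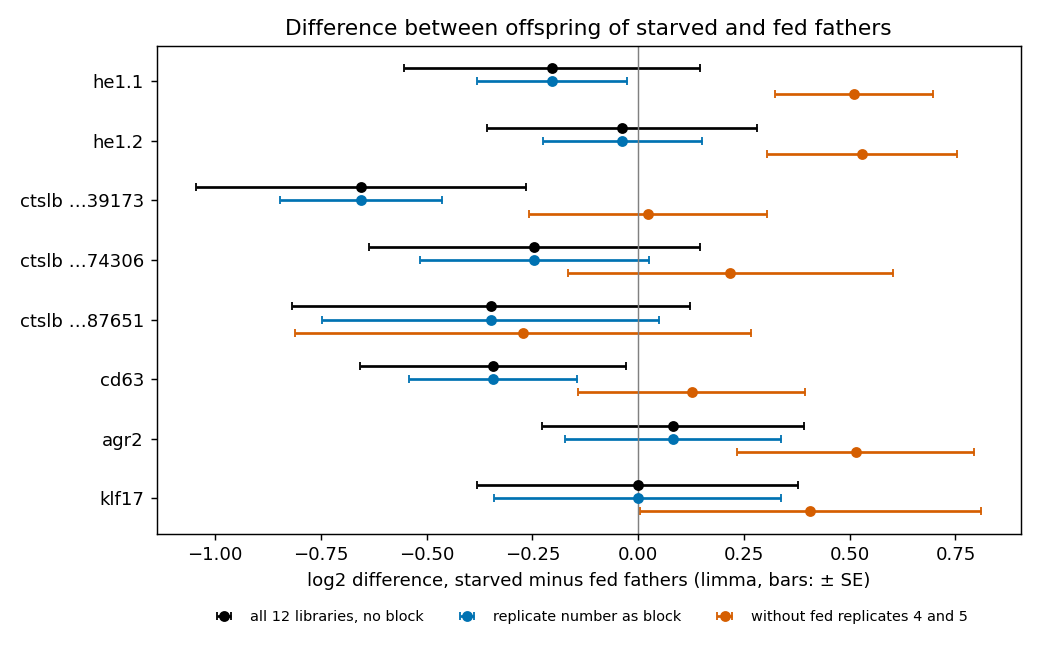
Log2 difference of each hatching gland row, starved minus fed fathers, from limma over all genes; bars are ± SE. Black points use all 12 libraries, blue points add the replicate number as a block, and orange points leave out fed replicates 4 and 5, which moves he1.1 from -0.20 to 0.51.

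Hatching gland rows with a mean value of at least 10 were among the more variable transcripts of these embryos. The SD of log2(value + 1) over 12 libraries was 0.99 for ctslb ENSDARG00000039173, 0.83 for he1.1 and 0.74 for he1.2, against a median of 0.38 over the 6425 genes with a mean value of at least 10. Of those 6425 genes, 1.26% had a larger SD than this ctslb row, 3.33% a larger SD than he1.1 and 5.62% a larger SD than he1.2. For ctslb ENSDARG00000074306, cd63 and agr2 the SD was 0.84, 0.70 and 0.62, and 2.99%, 6.88% and 11.4% of these genes had a larger one. The SDs include fed replicates 4 and 5. The highest library was 2.23-fold above the lowest for he1.1 among offspring of starved fathers and 6.64-fold among offspring of fed fathers. For ctslb ENSDARG00000039173 these ratios were 5.12 and 7.48. Counting error is small beside these ratios, since he1.1 had at least 652 and this ctslb row at least 257 reads in every library. It is larger for ctslb ENSDARG00000074306, agr2 and cd63, which had as few as 13, 29 and 67 reads in a library.

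Libraries with the same number were then compared, because their deviations from the group means were correlated over 6425 genes, at r between 0.14 and 0.52. For fed replicates 5 and 6 the closest starved library was not the same-numbered one but replicates 4 and 3. For the 6 rows with a mean value of at least 10, the starved library was the lower one for 6 of 6 rows in the pairs numbered 3, 4 and 5 and the higher one for 6 of 6 rows in the pair numbered 2. The median log2 difference over these rows was -0.65, -0.50 and -1.18 in the pairs numbered 3, 4 and 5 and 0.78 in the pair numbered 2. The pairs numbered 1 (median 0.08) and 6 (0.22) were mixed, with 2 of 6 rows lower in each. The 6 rows vary together (r between 0.61 and 0.91 over 12 libraries), so they are not 6 separate results. The share of all genes on each side within a pair was not counted. For he1.1 the difference of each of the 6 pairs was beyond its 95% counting interval, 3 of them negative and 3 positive. In ctslb ENSDARG00000039173 the starved library was lower in 4 of 6 pairs, with differences between -2.04 and 0.48. These intervals cover counting error only.

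**Figure D3:**
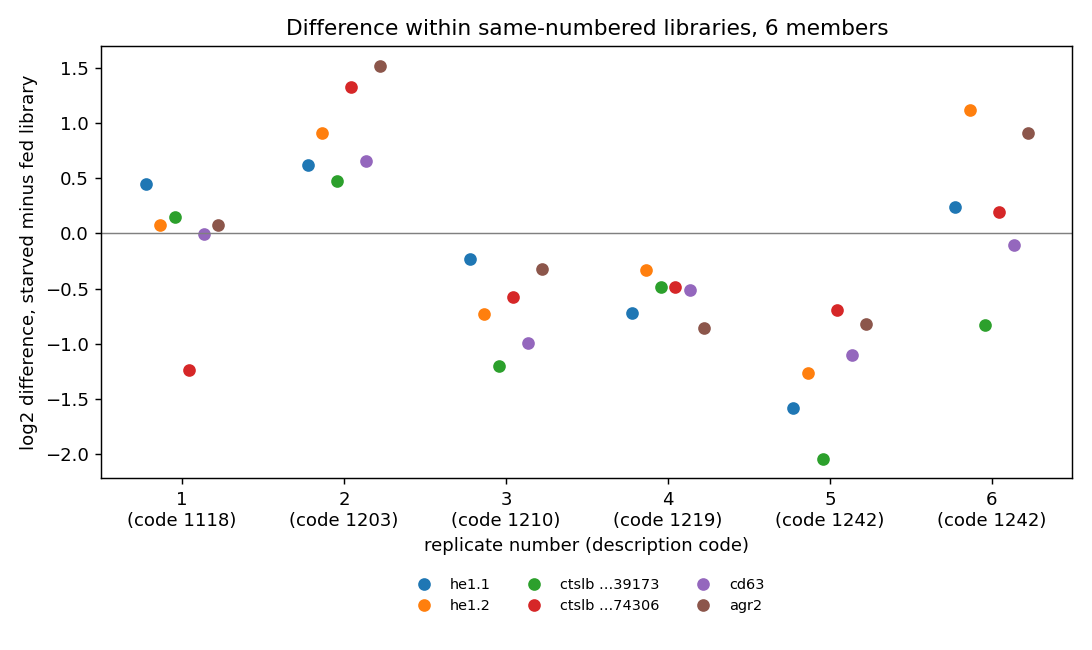
Log2 difference, starved minus fed library, within each replicate number for the 6 rows with a mean normalised read count of at least 10. The points of one number mostly lie on one side of 0: below it for numbers 3, 4 and 5 and above it for number 2.

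The values also differed between description codes, which hold libraries of both groups. In code 1219 he1.1 was at 478 in starved replicate 4 and 787 in fed replicate 4, and in the codes 1118, 1203 and 1210 between 193 and 313 in all 6 libraries. For he1.2 code 1219 was at 861 and 1087 in starved and fed replicate 4, against 277 to 621 in the codes 1118, 1203 and 1210, and for ctslb ENSDARG00000039173 at 317 and 443, against 61.95 to 164. Code 1242 spread widely: he1.1 was at 429 and 318 in starved replicates 5 and 6, and at 1283 and 269.7 in fed replicates 5 and 6. A limma F test of code, with paternal group as a covariate, called 153 of 13680 genes (1.12%) and none of the 8 rows. The smallest adjusted p of the set was 0.104, for ctslb ENSDARG00000039173, and 4 of 8 rows had an unadjusted p below 0.05, where 11.9% of all genes had one.

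The result for code depended on code 1242. Without it, and so over 4 codes of 2 libraries each, 585 genes (4.28%) passed, among them ctslb ENSDARG00000039173 (limma, adjusted p = 2.85e-05), he1.1 (0.000114) and he1.2 (0.000506). The same 3 rows passed when only fed replicate 5 was left out (adjusted p = 0.00229, 0.00491 and 0.0310), where 343 genes (2.51%) passed, or only fed replicate 6 (0.0192, 0.00896 and 0.00338), where 323 (2.36%) did. Without starved replicate 6 this ctslb row alone of the 8 passed (adjusted p = 0.0325), with 169 genes (1.24%) passing in all. Without starved replicate 5, also of code 1242, none of the 8 rows passed (limma, adjusted p = 0.107 for ctslb ENSDARG00000039173). In that fit 190 of 13680 genes passed. All these fits leave out libraries of code 1242, in which he1.1 ran from 269.7 to 1283. The spread within codes thus depends on the choice of libraries, and these p-values are no separate support for a difference between codes. The count of all genes called fell to 17 without fed replicate 4 and to 28 without starved replicate 4, the libraries of code 1219, with none of the 8 rows among them.

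Most of the rows varied together over the 12 libraries. Over 28 pairs of rows, 14 passed a permutation test of Pearson's r at an adjusted p below 0.05 and 11 of Spearman's rho, with 100000 resamples and adjustment over the 28. For he1.1 and he1.2 r was 0.91 (permutation p = 4.0e-05, adjusted p = 0.00112) and rho 0.94 (p = 7.0e-05, adjusted p = 0.00196), and r was 0.81 without fed replicates 4 and 5, the pair of libraries farthest from the median (p = 0.00471, adjusted p = 0.0659). For ctslb ENSDARG00000039173 and he1.1 r was 0.91 (permutation p = 0.00014, adjusted p = 0.00168), rho 0.81 (p = 0.00207, adjusted p = 0.0201), and r 0.69 without the same 2 libraries (p = 0.0273, adjusted p = 0.164). For each pair of rows, the 2 libraries farthest from the median of its first row were then left out. Of the 28 pairs, 1 passed over the remaining 10 libraries, ctslb ENSDARG00000074306 with cd63 (r = 0.90, permutation adjusted p = 0.0165). There fed replicate 5 and starved replicate 1 were left out, and r was 0.71 when fed replicates 4 and 5 were left out instead. For the 14 pairs that had passed, r was then between 0.37 and 0.90, lower than before in 13 of them. The libraries left out differed between pairs of rows, so the drops cannot be compared directly. For ctslb ENSDARG00000039173 with ENSDARG00000074306, r was 0.67 over all libraries and 0.37 without fed replicates 4 and 5. For ctslb ENSDARG00000074306 with he1.1, r was 0.75 over all libraries and 0.73 without fed replicate 5 and starved replicate 1. It was 0.57 for these rows without fed replicates 4 and 5. With the mean of each description code removed, r was 0.85 for he1.1 and he1.2 and 0.88 for ctslb ENSDARG00000039173 and he1.1. These values include fed replicate 5, where he1.1 was at 1283, against at most 429 in the other libraries of code 1242. Single codes hold too few libraries for a value of their own. Libraries that share a code may not be independent.

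The ctslb rows lie in a stretch of chromosome 12 with many similar genes, which was looked at after its values were seen. Between bases 16555603 and 16986968 the table lists 14 rows, 10 of which the table or the reference lists of names call a form of cathepsin L, with clone-style names for most. Fed replicate 5 was the highest library for 9 of these 10, the exception being ctslb ENSDARG00000087651. How many of all genes were highest in this library was not counted. The mean log2 value of all 10 was lower in the starved group (median log2 difference -0.46), as it was for 52% of all genes, and none passed limma's test (smallest adjusted p = 0.775). The authors' deposited table lists 5 of the 10 as lower at an FDR below 0.05, 4 of them rows other than ctslb, against 0.621% of all genes. The lowest FDR belongs to si:dkey-26g8.5, with a log2 fold change of -1.17 and an FDR of 4.51e-07 in the authors' deposited table.

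The neighbours zgc:174855 and si:dkey-26g8.5 were highest in fed replicates 5 and 4, as ctslb ENSDARG00000039173 was, but differed from it in other libraries. The row zgc:174855 (bases 16938807 to 16941319) averaged 116 ± 69.8 in offspring of starved fathers and 259 ± 302 in offspring of fed fathers (SD, n = 6 each), with 752 in fed replicate 5, 523 in fed replicate 4 and at most 87.2 in the other 4 libraries of fed fathers. The row si:dkey-26g8.5 (bases 16919411 to 16923162) averaged 68.0 ± 13.5 in offspring of starved fathers and 172 ± 156 in offspring of fed fathers (SD, n = 6 each), with 473 in fed replicate 5, 212 in fed replicate 4 and at most 99.4 in the other 4. In libraries of starved fathers si:dkey-26g8.5 lay between 55.5 and 94.0, where ctslb ENSDARG00000039173 ran from 61.95 to 317. Without fed replicates 4 and 5 the log2 difference was -0.36 for si:dkey-26g8.5 and turned to 0.48 for zgc:174855 and 0.02 for ctslb ENSDARG00000039173. Among the other cathepsin L rows it turned to 0.97 for zgc:174153, 0.44 for si:dkey-239j18.2, 0.36 for zgc:174154, 0.26 for si:dkey-269i1.4 ENSDARG00000100833 and 0.22 for ctslb ENSDARG00000074306. It stayed negative for si:dkey-269i1.4 ENSDARG00000095744 (-0.15) and ctslb ENSDARG00000087651 (-0.27). Fed replicates 4 and 5 were left out because they stood apart, while starved replicate 4 was kept. A shift towards higher values in the starved group is thus set by the choice for these rows too. How reads were split among these similar copies is not known.

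Other genes of the gland and its precursor did not separate the groups either. Of 27 names listed for them, 14 rows besides the 8 were measured, of which the mean log2 value was higher in the starved group for 6 and lower for 8 (median log2 difference -0.08), and none passed the test between groups or between codes. The most abundant was xbp1, the transcription factor of the secretory stress response, at 259.8 ± 61.2 in offspring of starved fathers and 297 ± 90.1 in offspring of fed fathers (SD, n = 6 each), with 408 and 409.5 in fed replicates 4 and 5. The Wnt repressor gene tcf7l1a was at 83.1 ± 40.1 in offspring of starved fathers and 73.0 ± 20.5 in offspring of fed fathers (SD, n = 6 each). The secretory factor gene creb3l2 was at 24.6 ± 5.97 in offspring of starved fathers and 25.9 ± 0.552 in offspring of fed fathers, and its relative creb3l1 at 21.6 ± 4.81 in offspring of starved fathers and 20.02 ± 6.34 in offspring of fed fathers (SD, n = 6 each). The transcription factor gene prdm1a was at 12.2 ± 3.33 in offspring of starved fathers and 12.5 ± 4.69 in offspring of fed fathers. The third enzyme of the tandem cluster, he1.3 (chromosome 22, bases 14102397 to 14103633), rested on 0 to 45 reads per library and averaged 2.58 ± 2.401 in offspring of starved fathers and 4.77 ± 5.06 in offspring of fed fathers (SD, n = 6 each), with its highest values, 13.55 and 8.24, in fed replicates 4 and 5.

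The families and the machinery around the set gave no call between groups. Besides the 8 rows, 49 genes of the endoplasmic reticulum secretory machinery were measured, and the mean log2 value was lower in the starved group for 36 of them (median log2 difference -0.16). The calreticulin gene calr3b, which encodes a folding chaperone, was at 309 ± 73.8 in offspring of starved fathers and 346 ± 87.2 in offspring of fed fathers, and its relative calr3a at 246 ± 45.02 in offspring of starved fathers and 310.3 ± 32.4 in offspring of fed fathers (SD, n = 6 each). The translocon-associated gene ssr2 was at 283 ± 35.9 in offspring of starved fathers and 310.4 ± 122 in offspring of fed fathers (SD, n = 6 each). Of 25 other tetraspanin genes 18 were on the lower side (median log2 difference -0.07), among them cd81a at 329 ± 99.4 in offspring of starved fathers and 387 ± 49.7 in offspring of fed fathers. The 14 other Klf genes had a median log2 difference of -0.06 (8 lower), among them klf6a at 104 ± 34.1 in offspring of starved fathers and 106 ± 12.1 in offspring of fed fathers (SD, n = 6 each), and the 4 other astacin genes one of -0.46 (4 lower), all at mean values below those of agr2. Of 9 other cysteine cathepsin genes 7 were lower (median -0.44). Among them, ctsla was at 240.3 ± 101 in offspring of starved fathers and 354 ± 201 in offspring of fed fathers. The test between codes was passed by 4 of the 9, and by 1.12% of all genes. The cathepsin B gene ctsba was at 128 ± 51.4 in offspring of starved fathers and 268 ± 118 in offspring of fed fathers (SD, n = 6 each), with a log2 difference of -1.08 ± 0.26 (SE; limma, unadjusted p = 0.000340, adjusted p = 0.775) and 495 in fed replicate 5. The dipeptidyl peptidase gene ctsc, at 69.9 ± 72.3 in offspring of starved fathers and 131 ± 160.1 in offspring of fed fathers, and the cathepsin L-like gene ctsll, at 52.0 ± 31.2 in offspring of starved fathers and 65.1 ± 31.1 in offspring of fed fathers (SD, n = 6 each), were among the genes that passed between codes (limma, adjusted p = 0.00457 and 0.0382).

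The remaining genes of these families that were most abundant had lower levels. Among tetraspanins, cd82a was at 63.8 ± 22.2 in offspring of starved fathers and 71.7 ± 28.1 in offspring of fed fathers, tspan7 at 56.4 ± 12.3 in offspring of starved fathers and 74.3 ± 17.6 in offspring of fed fathers, and tspan31 at 51.1 ± 15.8 in offspring of starved fathers and 49.6 ± 7.36 in offspring of fed fathers (SD, n = 6 each). Among Klf genes, klf7b was at 32.6 ± 5.49 in offspring of starved fathers and 33.6 ± 10.9 in offspring of fed fathers, klf3 at 18.7 ± 6.97 in offspring of starved fathers and 28.7 ± 8.80 in offspring of fed fathers, and klf13 at 22.2 ± 4.47 in offspring of starved fathers and 20.3 ± 3.10 in offspring of fed fathers (SD, n = 6 each). The astacin genes bmp1a, npsn and tll1 averaged 5.04, 1.49 and 1.92 in offspring of starved fathers and 6.58, 2.85 and 2.31 in offspring of fed fathers.

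Markers of the yolk layer and the epidermis were highest in the same libraries as those of the hatching gland, but other libraries differed in order. Of 18 marker names of the gland, 16 rows were measured, since ctslb has 3 and he1a, he1b, he2 and gsc stand on no row under these names. These 16 include the 8 rows of the set, so their sum is not separate from the values above. The summed normalised read count of the 16 lay between 940.2 and 2157 in libraries of starved fathers, the highest in replicate 4. In libraries of fed fathers it lay between 938 and 4317, with 2941 in replicate 4 and 4317 in replicate 5. Yolk syncytial layer markers (14 of 15 measured) summed to between 2757 and 10091 in libraries of starved fathers and between 5979 and 14390 in libraries of fed fathers, and were likewise highest in fed replicates 5 and 4 and in starved replicate 4. Epidermis and periderm markers (16 of 16) summed to between 6635 and 11799 in libraries of starved fathers and between 7380.5 and 15899 in libraries of fed fathers, with the highest sums in fed replicates 5 and 4. Elsewhere the lists parted: fed replicate 1 had a yolk layer sum of 9549 and a gland sum of 1139, and starved replicate 5 sums of 4026 and 1724.

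Muscle, lens and neuron markers were lowest in fed replicates 4 and 5 and starved replicate 4, the libraries with the highest gland sums. Their highest sums were in starved replicate 2 (muscle), fed replicate 3 (lens) and fed replicate 6 (neurons), while the lowest gland sum was in fed replicate 2. Skeletal muscle markers (20 of 20) summed to between 10705 and 24768 in libraries of starved fathers and between 4970 and 24434 in libraries of fed fathers, with the 2 lowest sums, 4970 and 6530.1, in fed replicates 4 and 5 and the third in starved replicate 4. Lens markers (9 of 11) summed to between 38.4 and 250.2 in libraries of starved fathers and between 30.7 and 329.6 in libraries of fed fathers, and were lowest in fed replicate 4, starved replicate 4 and fed replicate 5. No measured marker of these lists was at 0 in all 12 libraries, and none of the yolk layer, muscle or epidermis markers was at 0 in any. Neuron markers (8 of 8) summed to 1044 to 1717 in libraries of starved fathers and to 846 to 1901 in libraries of fed fathers, and were lowest in fed replicate 5 (846), fed replicate 4 (955) and starved replicate 4 (1044). Myeloid markers (6 of 10) summed to 14.15 to 38.4 in libraries of starved fathers and 10.6 to 40.4 in libraries of fed fathers. Notochord markers (9 of 10) summed to 526 to 728 in libraries of starved fathers and to 492 to 862 in libraries of fed fathers. Myeloid and notochord sums, like those of the gland, were highest in fed replicate 5. None of the markers passed limma's test between groups, but some lists shifted more than the 8 rows did: the mean log2 value was lower in the starved group for 14 of 14 yolk layer markers (median log2 difference -0.51) and higher for 19 of 20 muscle markers (median 0.56). Between codes, 11 of 20 muscle markers, 6 of 9 lens markers, 2 of 14 yolk layer markers and 2 of 16 epidermis markers passed. Of all genes 1.12% did. The part of these other tissues in the hatching gland values was not tested.

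**Figure D4:**
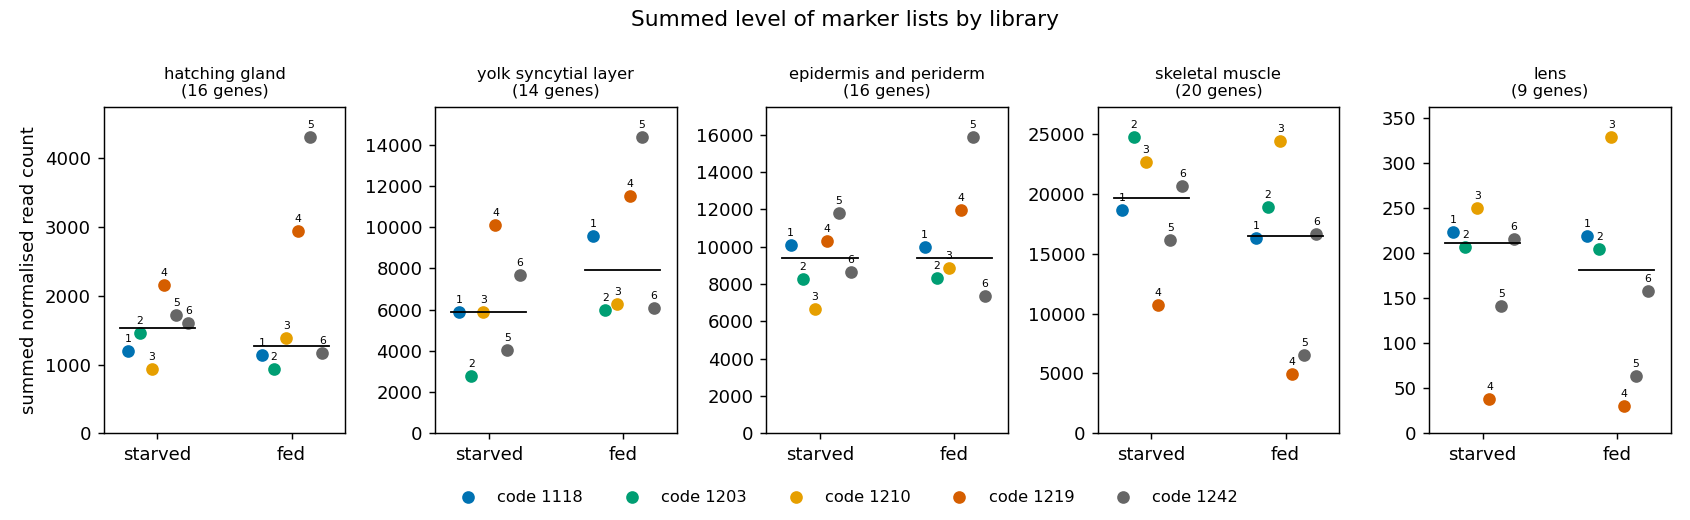
Summed normalised read count of 5 marker lists in each library, in offspring of starved fathers (left) and of fed fathers (right); points carry the replicate number, colours give the description code and the line is the median of 6 libraries. Fed replicates 4 and 5 are the highest libraries for hatching gland, yolk layer and epidermis and the lowest for skeletal muscle. The hatching gland list includes the 8 rows of the set.

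The genes whose profile was most like the mean profile of the 6 rows with a mean value of at least 10 came from several functions. That profile, of log2 values centred and scaled per gene, was highest in fed replicates 5 (2.02) and 4 (1.07). Starved replicate 5 followed at 0.45. Every gene named here was above its own median in both fed replicates 4 and 5, and no r was computed without them. Over 12 libraries, and leaving out clone-style names, the highest Pearson's r among 6419 other genes belonged to rpl37, a protein of the large ribosomal subunit (0.96), and tpt1, the translationally controlled tumour protein (0.94). They were followed by selenof, a selenoprotein of the endoplasmic reticulum (0.94), agr1, a relative of agr2 (0.94), fxyd6l, a regulator of the sodium pump (0.94), igfbp2a, which binds insulin-like growth factors (0.93), rps12, a protein of the small ribosomal subunit (0.92), and ndufa2, a subunit of respiratory complex I (0.90). An r of at least 0.8 was found for 114 of the 6419 genes, whose libraries and scaling are the same. The gene agr1 averaged 114 ± 24.1 in offspring of starved fathers and 123 ± 72.6 in offspring of fed fathers (SD, n = 6 each), with 258 in fed replicate 5 and 152 in fed replicate 4. Among clone-style names, the cathepsin L row si:dkey-269i1.4 at bases 16555603 to 16558106 (ENSDARG00000100833) had the highest r of all, 0.97.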

How the data were processed

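The authors' deposited expression signal is not named in the headers; its values show read counts scaled by 1 size factor a library. Multiples of the smallest step gave whole reads for 100% of values (tolerance 0.03 reads), and these reads served for count tests. Per the submitters' processing notes, STAR and edgeR were used with the build GRCz11 (danRer11); the sources used here give no settings, use of strand or filter on genes. Per the file headers, the authors deposited a log2 fold change, starved over fed fathers by its sign, and an FDR, an adjusted p-value. Per the labels' protocols, libraries were made with the QuantSeq 3' forward kit. Library columns of other series were 0.

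Groups came from the titles and columns from the descriptions. A raw count table was the first assumption of the plan; the unit found called for limma 3.58.1 (R 4.3.3, variance trend) on log2(value + 1) over all 13680 genes, without a block, and calls at a Benjamini-Hochberg adjusted p below 0.05. The pseudocount makes differences of low genes look smaller than they are. Alternatives included edgeR 4.0.16 with TMM and DESeq2 1.42.0 on whole reads (adjusted p of 3 genes left empty), other pseudocounts and scalings, blocks and left-out libraries. The fits were tested on simulated data.

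Same-numbered libraries deviated together: over 6425 genes the correlation of their deviations from the group means was 0.14, 0.20, 0.40, 0.52, 0.27 and 0.18 for numbers 1 to 6. The highest correlation of each starved library with a fed library of another number was 0.12, 0.15, 0.30, 0.32, 0.16 and 0.14. The starved library closest to fed replicate 5 was replicate 4, and the one closest to fed replicate 6 was replicate 3. The pairing comes from these data and from the shared description codes, not from a statement in the labels.

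The members and lists were chosen with earlier results of these data known. All rows of the set were named, the 4 most abundant other genes of each gland, family or secretory list, and the 8 genes most like the mean profile, clone-style names left out; other named genes were chosen after their values were seen. Gene sequences were not used here.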

Additional observations from a re-analysis of the deposited data

How the results depend on the processing

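Between groups, no gene was called under the settings without a block, among them 12 fits that each left out 1 library (0 to 0 genes); 39 genes were called with the replicate number as a block and 1 with the description code as a block. The block changed the call of none of the 8 hatching gland rows. Leaving out each library in turn, the log2 difference ran from -0.87 to -0.30 for ctslb ENSDARG00000039173, -0.46 to 0.050 for ctslb ENSDARG00000074306, -0.60 to -0.03 for ctslb ENSDARG00000087651, -0.39 to 0.15 for he1.1, -0.25 to 0.24 for he1.2, -0.21 to 0.21 for klf17, -0.14 to 0.34 for agr2 and -0.49 to -0.08 for cd63. Without fed replicates 4 and 5 it turned to 0.024 and 0.22 for the first pair of ctslb rows, 0.51 for he1.1, 0.53 for he1.2, 0.41 for klf17 and 0.13 for cd63. For klf17 it turned to 0.0012 with a pseudocount of 0.5 and 0.0080 on reads scaled to the total outside the mitochondrial chromosome, and for agr2 to -0.067 with edgeR and -0.063 with DESeq2. No row passed between groups under any setting run.

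Between codes, the count of genes was 84 with a minimum mean value of 5, 585 without code 1242 and 17 to 343 with each library left out. The causes were not tested. The correlation of ctslb ENSDARG00000074306 with agr2 passed with a pseudocount of 5 (r = 0.69, permutation adjusted p = 0.0263) and not with 1. Depth was lowest for klf17 and ctslb ENSDARG00000087651, with at most 33 reads in a library. Of 6 same-numbered pairs, the difference was beyond counting error in 2 for klf17, 1 for ctslb ENSDARG00000087651, 3 for ctslb ENSDARG00000074306, 4 each for agr2 and cd63, 5 each for ctslb ENSDARG00000039173 and he1.2, and 6 for he1.1. For ctslb ENSDARG00000087651 the pair numbered 5 could not be judged. Its starved library had 0 reads and its fed library 8, so no counting interval was made.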

Other observations

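Within a library, the size factor cancels when 2 genes are set against each other. For every 100 normalised read counts of he1.1 and he1.2 together, ctslb ENSDARG00000039173 had 9.63 at the lowest, 18.5 at the median and 25.1 at the highest in libraries of starved fathers, against 16.4, 25.0 and 30.2 in libraries of fed fathers. The mean was 17.7 ± 6.46 in offspring of starved fathers and 24.8 ± 5.05 in offspring of fed fathers (SD, n = 6 each), the groups overlapped, and the ratio was lower in the starved library in 5 of 6 same-numbered pairs. Fed replicates 4 (23.6) and 5 (29.3), which stand apart in the level of all 3 genes, lay within the range of the other libraries of fed fathers in this ratio. It was chosen after the values were seen, and no test was made. The ratio of he1.2 to he1.1 was 1.79 ± 0.417 in offspring of starved fathers and 1.62 ± 0.482 in offspring of fed fathers (SD, n = 6 each), with the lowest value, 1.17, in fed replicate 5.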
